A study of Mus musculus with 36 samples.

Results

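Collagens and laminins are the main building proteins of the extracellular matrix, and 55 genes for them, 44 collagen chains and 11 laminin chains, were followed among the 31554 genes measured in 3 brain regions. They were chosen by symbol alone (protein-coding genes named Col with a chain number, or Lama, Lamb or Lamc with a number), so no measured value entered the choice. They were sorted by the structure of their proteins, and in the neuronal group partly by the cells that make them. This gave 9 basement membrane collagens, 11 laminins, 11 fibrillar collagens and 6 collagen VI chains. The others were 8 fibril-associated collagens, 5 neuronal and transmembrane collagens and 5 network-forming or other collagens. The samples were nucleus accumbens (NAc, a striatal region of reward and motivation), prefrontal cortex (PFC; its medial part, per the series description) and periaqueductal grey (PAG, a midbrain centre of descending pain control) of adult male C57BL/6 mice. Each mouse had received sham surgery or spared nerve injury (SNI), in which branches of the sciatic nerve are cut and another is spared as a model of lasting neuropathic pain, and tissue was taken 2.5 months later. There were 6 groups of 6 libraries, numbered 1 to 36 through the series. The mice carried no transgene or other agent that the labels name. The labels describe the RNA of each library as pooled and do not give the mice behind it, so p-values refer to the scatter among libraries, some of which may be technical.

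Collagen chains wind around each other into a rope-like helix, and the fibrillar collagens pack these helices into the strong fibres of skin, bone and meninges. Basement membranes are thin sheets in which a collagen IV network and a laminin network, joined by linker proteins, underlie or surround cells. Each laminin molecule joins an alpha, a beta and a gamma chain. In the brain, basement membranes surround blood vessels, where endothelial cells, mural cells and astrocytes contribute chains, and cover the surface under the meninges. Some collagens are instead made by neurons and shed from or held at their membranes.

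Libraries held 27.6 to 64.9 M assigned reads. Levels are in RPKM (reads per kilobase of gene, scaled to library depth), which corrects for the deposited gene length. Comparisons of level between genes rest on those lengths. RPKM does not correct for GC content, on which the libraries differed (below). The regional labels were borne out by marker genes. Summed RPKM of 8 medium spiny neuron markers were 1254.7 to 1939.7 in NAc libraries, 41.0 to 94.0 in PFC and 106.0 to 132 in PAG. Cortical excitatory neuron markers summed to 532 to 671 in PFC and 8.57 to 12 in PAG, and ranged from 9.62 to 209 among NAc libraries. NAc sham library 4 stood apart in fibroblast and meningeal markers, with a sum of 207 against 24.3 to 83.1 in the other 5 NAc sham libraries, and 2 PAG libraries did in choroid plexus markers. Their sum was 783 in PAG sham library 27 against 8.5 to 23.5 in the other PAG sham libraries, and 327 in PAG SNI library 31 against 9.17 to 12.2 in the other PAG SNI libraries.

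Of the 55 genes, 40 reached a mean of 0.5 RPKM in at least 1 region and 15 in none. Col6a1, a chain of the beaded-filament collagen VI, had the highest mean over the 36 libraries, 32.5 RPKM. Col25a1, a transmembrane collagen of neurons, followed with 9.27 RPKM, and then came the basement membrane genes Col4a2 (7.19), Col4a1 (5.59), Lamc1 (5.55) and Lamb2 (4.2). Genes that dominate connective tissue were low in these brain samples: the means of Col1a1, Col1a2 and Col3a1 were 0.577, 1.04 and 0.274 RPKM. Under 0.5 RPKM in every region stood the collagen IV chains Col4a3, Col4a4 and Col4a6, the anchoring collagen Col7a1, the cartilage collagens Col2a1, Col9a1 and Col10a1, and Col3a1, Col6a5, Col6a6, Col13a1, Col14a1, Col17a1, Col22a1 and Col28a1. The lowest was Col10a1, with 5.67 reads per library on average.

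**Figure D1:**
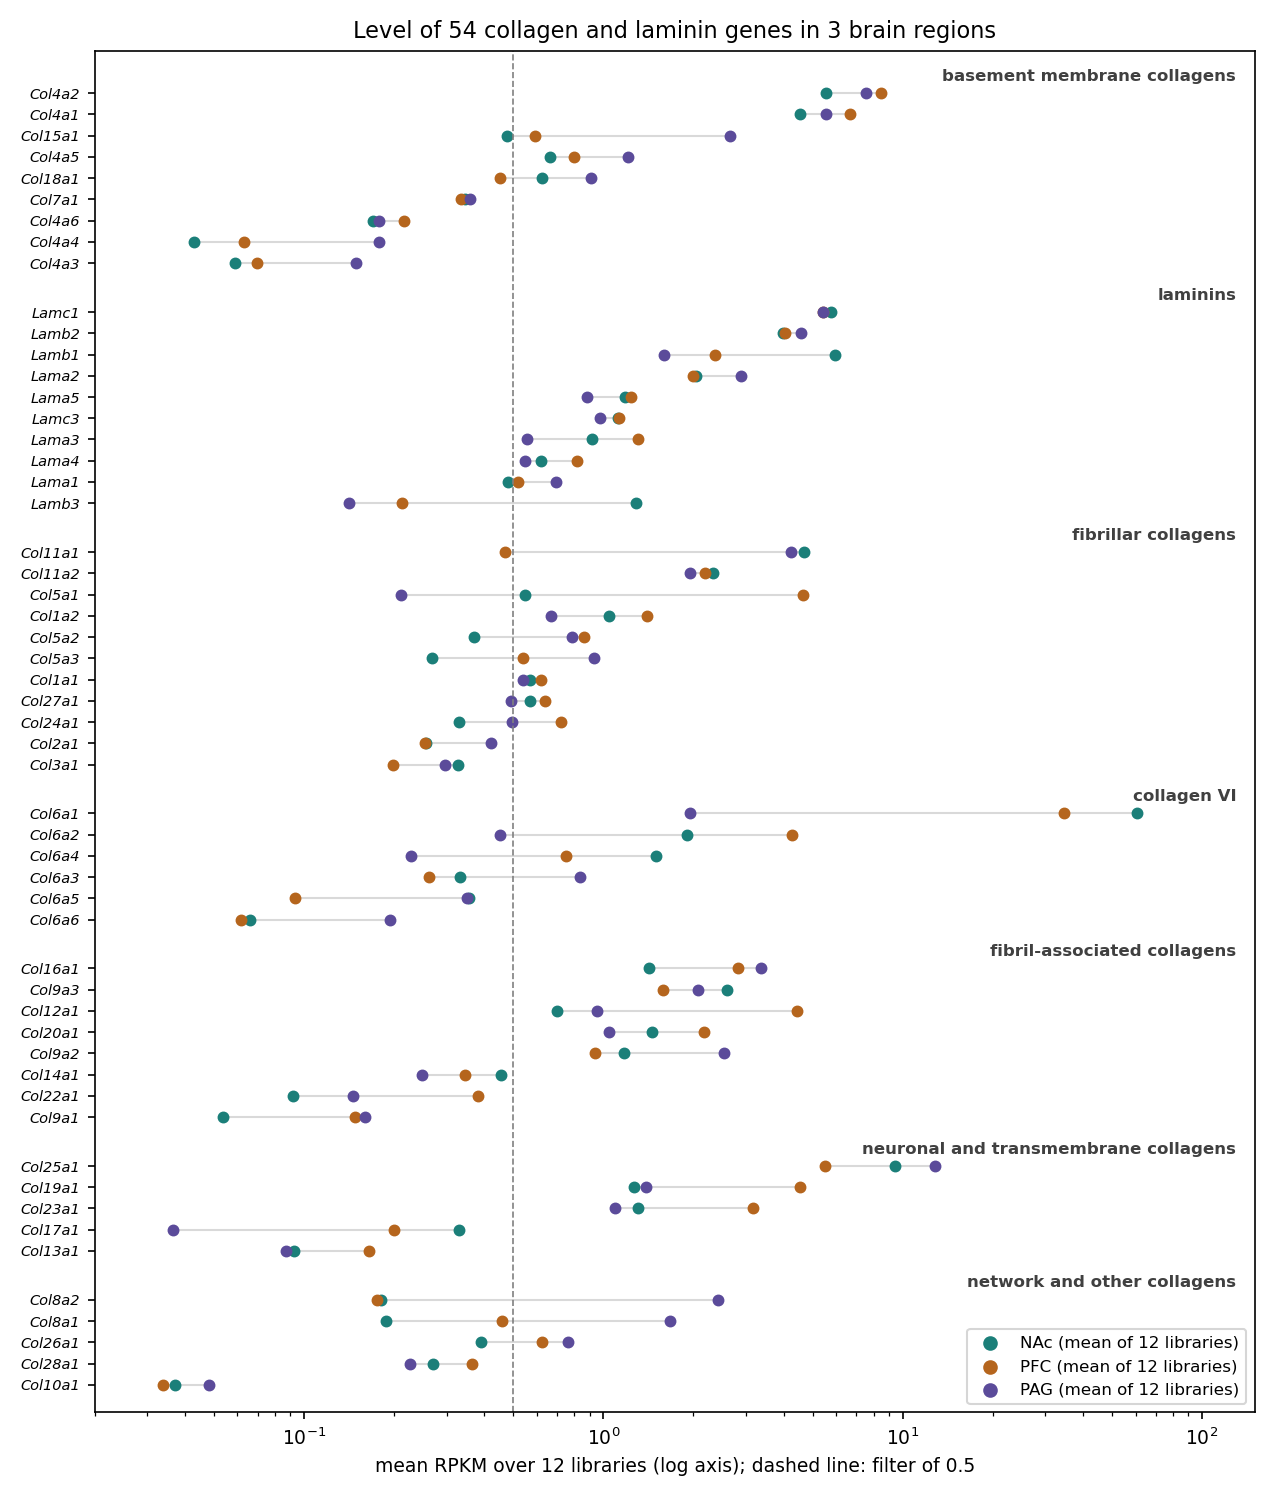
Mean RPKM over 12 libraries (log axis) of collagen and laminin genes in NAc, PFC and PAG, in the protein groups of the text and ordered within a group by the mean over all 36 libraries. The dashed line marks 0.5 RPKM, the filter for testing. Col6a1 lies above all others in NAc and PFC, Col25a1 is the highest in PAG, and the 3 regional means of Lamc1, like those of Lamb2, lie close together.

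The regions were compared in their sham libraries with limma, a linear model with moderated errors, on log2(RPKM + 0.5); low genes differ by more in RPKM than this scale shows. All 36 libraries shared 1 estimate of the spread, 39 of the 55 genes passed the filter of a mean of 0.5 RPKM, and a difference was called at an adjusted p under 0.05 with a fold of at least 2. NAc exceeded PFC in 3 of the 39 genes and fell below it in 4, where 3.38% and 3.47% of all 15639 genes tested were called. NAc exceeded PAG in 6 and fell below it in 3, against 6.59% and 6.42% of all genes. PFC exceeded PAG in 7 and fell below it in 5, against 7.74% and 7.35%. As shares of the 39 genes these counts were 7.69% and 10.3%, 15.4% and 7.69%, and 17.9% and 12.8%. The counts include Lamb3, Col8a1 and Col8a2, which averaged 0.5 RPKM or more only in the region where each was high. These genes passed the filter through that region alone, so their calls were favoured by it. The comparisons share groups, so their counts are not independent of each other. The tissue is bulk, so fewer cells of a type and less RNA per cell cannot be told apart.

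Among the abundant vascular chains, Lamc1 and Lamb2 passed the rule in no regional comparison. Lamc1, the gamma chain of most brain laminins, ranged from 4.62 to 6.50 RPKM over all 36 libraries, and its 3 regional differences lay between 0.02 and 0.12 on the log2 scale (adjusted p, limma, 0.0696 to 0.745). The 95% intervals of those differences reached no further than 0.25, so that a difference of 2-fold lies outside them. Lamb2, a beta chain of vascular and synaptic laminins, had medians of 3.55, 4.49 and 3.45 RPKM in NAc, PFC and PAG sham libraries, and its differences did not pass the threshold (-0.07 to 0.21, adjusted p 0.332 to 0.766). The sham libraries of the 3 regions overlapped for both genes.

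Col4a1 and Col4a2, whose products assemble together in the main collagen IV of brain vessels, passed the rule in no regional comparison, since their differences stayed under a fold of 2. Col4a2 lay at 3.62 to 6.98 RPKM in NAc sham (median 5.05), 5.06 to 11.2 in PFC sham (median 8.54) and 5.05 to 6.11 in PAG sham (median 5.73). Its PFC level exceeded that of NAc by 0.60 ± 0.16 SE and that of PAG by 0.49 ± 0.16 on the log2 scale (adjusted p, limma, 0.00232 and 0.00817). For Col4a1 the difference of NAc minus PFC was -0.50 ± 0.14 and that of PFC minus PAG 0.48 ± 0.14 (adjusted p, limma, 0.00194 and 0.00199). The size of the Col4a2 difference of PFC minus PAG moved with the GC correction used. It was 0.29 with each library's GC trend removed within regions, 0.24 with the GC slope of the library as a covariate, and -9.63e-05 with the trend removed over all 36 libraries together, an alternative chosen after seeing the data. Per unit of length, Col4a1 ran at 0.638 to 0.923 of the level of Col4a2 in the 36 libraries. The genes are divergent neighbours on chromosome 8 and start within 22 bases of each other, so the transcript of each begins inside the start of the other. Their shared start is shown because this pair led the basement membrane results in PAG given below. It is from RefSeq (GRCm38.p6), chr8:11312801-11312830, + strand, with the 22 bases from the Col4a2 start (first capital, transcribed to the right) to the Col4a1 start (last capital, transcribed to the left) in capitals.
Col4a1 and Col4a2: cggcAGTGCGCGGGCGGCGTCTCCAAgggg

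The other collagen IV genes lie in the same divergent arrangement and were far lower. The starts of Col4a4 and Col4a3 are 72 bases apart and those of Col4a6 and Col4a5 1309 bases apart. Only Col4a5 of those 4 passed the filter, with means of 0.662, 0.801 and 1.21 RPKM for NAc, PFC and PAG. Among the basement membrane collagens outside collagen IV, Col15a1, which bridges basement membranes to the fibres around them, was regional. It measured 0.375 to 0.564 RPKM in NAc sham, 0.482 to 0.877 in PFC sham and 1.70 to 2.72 in PAG sham. Every PAG library lay above every library of the other regions, by 1.46 ± 0.09 over NAc and 1.28 ± 0.09 over PFC on the log2 scale (adjusted p, limma, 3.52e-16 and 1.16e-14).

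Lamb1 and Lamb3 were among the laminin chains called between regions. Lamb1, the beta chain paired with Lamc1 in much of the embryo and in vessels, was highest in NAc: 5.40 to 6.62 RPKM in NAc sham (median 5.91), 1.86 to 2.87 in PFC sham (median 2.21) and 1.29 to 1.86 in PAG sham (median 1.54). NAc sham libraries did not overlap the others. The differences were 1.21 ± 0.08 to PFC and 1.65 ± 0.08 to PAG (adjusted p, limma, 4.90e-15 and 4.71e-19). The partner Lamc1 did not share this pattern, so the ratio of Lamb1 to Lamc1 per unit of length was 0.937 to 1.36 in NAc sham, 0.378 to 0.524 in PFC sham and 0.249 to 0.347 in PAG sham. The ratio of Lamb2 to Lamb1 had the opposite order, with medians of 0.601 in NAc sham, 1.79 in PFC sham and 2.12 in PAG sham.

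Because the 2 beta chains are alternatives in otherwise alike laminins and had such different regional patterns, the 120 bases before the more upstream of the RefSeq and GENCODE starts of each are shown (RefSeq sequence, GRCm38.p6, 5′ to 3′ on the gene's strand). Capitals mark matches, on either strand, to a GC box with the letters GGGCGG. The motif with the letters TATAAA, known as the TATA box, was searched for in the same way. So was the CAAT box, whose letters are CCAAT. Lamb1 is at chr12:31265114-31265233 (+ strand) and Lamb2 at chr9:108479616-108479735 (+ strand).
Lamb1: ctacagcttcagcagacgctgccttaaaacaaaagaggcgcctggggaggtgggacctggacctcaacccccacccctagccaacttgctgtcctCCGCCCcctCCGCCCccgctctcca
Lamb2: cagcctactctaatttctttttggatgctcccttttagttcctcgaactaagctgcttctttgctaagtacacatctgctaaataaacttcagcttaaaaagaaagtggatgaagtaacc
The Lamb1 stretch held 2 GC boxes and had a GC content of 64.2%. The Lamb2 stretch held none of the 3 motifs and had a GC content of 37.5%. A GC box is found in 26.5%, a TATA box in 6.34% and a CAAT box in 21.3% of the 120 bases before all 32851 RefSeq starts, and no motif here overlapped another. Both stretches end before a GENCODE start upstream of the RefSeq start, so these shares, taken directly before RefSeq starts, are no matched background. The bases between the GENCODE and RefSeq starts were not searched.

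Lamb3, a beta chain best known from the laminin of epithelia such as skin, was also highest in NAc. It was at 0.857 to 1.54 RPKM in NAc sham, 0.129 to 0.286 in PFC sham and 0.0798 to 0.205 in PAG sham, and NAc did not overlap the other regions. NAc exceeded PFC by 1.22 ± 0.09 and PAG by 1.42 ± 0.09 (adjusted p, limma, 2.58e-13 and 1.88e-15). With a pseudocount of 1 the difference to PFC was 0.83, short of a fold of 2. Lama3, an alpha chain found with Lamb3 in epithelia, had another order, with medians of 0.930, 1.35 and 0.595 RPKM in NAc, PFC and PAG sham, within a fold of 2 of each other on the log2(RPKM + 0.5) scale.

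Within NAc, Col19a1, a collagen made by neurons that was itself higher in PFC (values below), followed the cortical excitatory neuron markers, whose summed RPKM was 9.62 to 209 there. Over the 12 NAc libraries, each taken relative to the mean of its surgery group, Pearson's r between Col19a1 and the marker score was 0.85 (permutation p adjusted over 7 relations 0.00213) and Spearman's rho 0.888 (adjusted permutation p 0.00105). Without libraries 12 and 5, the farthest from the median score, r was 0.875. For Lamb1, Lamb3, Col5a1, Col11a1 and Col12a1, r lay between -0.496 and 0.576 and did not pass the adjusted threshold. These 7 relations were chosen after the regional values were seen, and the part of cortical tissue in the NAc values was not tested.

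Among the fibrillar collagens, the minor chains Col5a1 and Col11a1, which sit inside fibres and set their width, were the ones called between regions. Col11a1 was high in NAc sham (3.96 to 5.60 RPKM) and PAG sham (2.76 to 4.25) and low in PFC sham (0.352 to 0.651). The PFC libraries lay below all others, by 2.40 ± 0.10 to NAc and 2.06 ± 0.10 to PAG (adjusted p, limma, 2.79e-20 and 6.32e-19). Col5a1 showed the reverse: 2.47 to 6.92 RPKM in PFC sham, 0.355 to 0.768 in NAc sham and 0.107 to 0.208 in PAG sham. PFC exceeded NAc by 2.22 ± 0.16 and PAG by 2.87 ± 0.16, again with no overlap (adjusted p, limma, 3.97e-14 and 1.49e-17). In GENCODE M21, 1.17% and 1.33% of the exon bases of Col5a1 are shared with 2 noncoding genes on the opposite strand, and the strand setting of the read counting is not given in the sources used here. The major fibre chains Col1a1 and Col1a2 were not regional by the rule. In NAc they were highest in sham library 4, at 1.75 and 3.04 RPKM against 0.268 to 0.633 and 0.610 to 1.34 in the other 5 sham libraries, and Col3a1 was 1.48 there; this is the library with the high meningeal markers, whose part in these values was not tested.

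Col6a1 of collagen VI had the largest regional difference of the 39 genes. It was at 43.0 to 72.1 RPKM in NAc sham (median 55.7), 17.4 to 43.3 in PFC sham (median 34.6) and 1.3 to 1.83 in PAG sham (median 1.70). It exceeded PAG by 4.75 ± 0.19 in NAc and 3.90 ± 0.19 in PFC (adjusted p, limma, 1.27e-21 and 2.84e-19), with no overlap, while NAc and PFC overlapped and differed by less than a fold of 2 (0.85 ± 0.19). Col6a2, which joins the Col6a1 chain in the collagen VI molecule, had another order: 2.14 to 5.64 RPKM in PFC sham (median 4.31), 1.40 to 2.83 in NAc sham (median 1.96) and 0.291 to 0.457 in PAG sham (median 0.391). Both PFC and NAc lay above PAG with no overlap, by 2.36 ± 0.16 and 1.47 ± 0.16 (adjusted p, limma, 4.86e-15 and 6.26e-10). Per unit of length, the ratio of Col6a1 to Col6a2 was 24.8 to 37.1 in NAc sham, 7.48 to 8.63 in PFC sham and 4.01 to 5.42 in PAG sham, so that the 3 regions did not overlap in it. The other usual chain of the molecule, Col6a3, was low, with means of 0.332, 0.262 and 0.837 RPKM for NAc, PFC and PAG, and passed the filter in PAG only. Col6a4, an alternative to Col6a3, was at 0.774 to 2.53 RPKM in NAc sham and 0.0785 to 0.345 in PAG sham, higher in NAc by 1.49 ± 0.20 (adjusted p, limma, 5.68e-08).

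Col6a1 and Col6a2 lie on the same strand of chromosome 10, 85162 bases apart, and the 120 bases before each are shown because the neighbours shared the contrast to PAG but not the order of NAc and PFC (RefSeq sequence, GRCm38.p6, 5′ to 3′ on the - strand; starts and motifs as for the laminins above). Col6a1 is at chr10:76726169-76726288 and Col6a2 at chr10:76623631-76623750.
Col6a1: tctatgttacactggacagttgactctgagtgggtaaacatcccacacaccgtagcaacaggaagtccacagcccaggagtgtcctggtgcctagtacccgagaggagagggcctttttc
Col6a2: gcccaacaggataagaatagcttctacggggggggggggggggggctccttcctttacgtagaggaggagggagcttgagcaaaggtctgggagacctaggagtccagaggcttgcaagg
Neither stretch matched any of the 3 motifs, and their GC contents were 53.3% and 60.0%. The Col6a1 stretch likewise ends before a GENCODE start upstream of its RefSeq start, and the bases between were not searched.

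Some of the neuronal and the remaining collagens were regional as well. Col25a1, a membrane-bound collagen of neurons known for its presence in amyloid plaques and its role in motor innervation, was abundant in every library. It lay at 8.42 to 10.9 RPKM in NAc sham, 5.21 to 6.06 in PFC sham and 12 to 14.5 in PAG sham, and the 3 groups did not overlap. The difference of PFC from PAG was -1.14 ± 0.07 (adjusted p, limma, 5.75e-16); NAc stood between them within a fold of 2 of each. Col19a1 was at 3.47 to 5.85 RPKM in PFC sham against 0.854 to 1.83 in NAc sham and 1.28 to 1.62 in PAG sham, higher by 1.56 ± 0.13 and 1.41 ± 0.13 (adjusted p, limma, 2.22e-12 and 9.63e-12). Col12a1, a fibril-associated collagen, was at 3.53 to 5.19 RPKM in PFC sham, 0.605 to 1.04 in NAc sham and 0.841 to 1.08 in PAG sham, and PFC exceeded NAc by 1.95 ± 0.08 (adjusted p, limma, 1.70e-20).

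Col8a1 and Col8a2, the chains of a network collagen of vessel walls and of Descemet's membrane in the eye, were higher in PAG. Col8a2 was at 1.89 to 2.85 RPKM in PAG sham, 0.0534 to 0.709 in NAc sham and 0.108 to 0.309 in PFC sham. Col8a1 was at 1.39 to 2.73, 0.0862 to 0.538 and 0.357 to 0.540 RPKM. No library of another region reached the PAG range, and PAG exceeded NAc by 1.89 ± 0.12 for Col8a2 and 1.58 ± 0.11 for Col8a1 (adjusted p, limma, 7.53e-16 and 1.75e-14). Both genes averaged under 0.5 RPKM in NAc and in PFC. They passed the filter only through PAG, so these p-values are given as a description. The highest PAG sham values of both came from library 27, with the choroid plexus markers; the other 5 reached 2.18 and 1.63 RPKM. PAG SNI library 31, the other with such markers, was the highest PAG SNI library for Col8a1, at 2.05 RPKM. The SNI difference of Col8a2 in PAG was 0.21 ± 0.08 (adjusted p, limma, 0.0608), 0.27 ± 0.07 without library 27 (adjusted p 0.00865) and 0.18 ± 0.08 without library 31 (adjusted p 0.126), so that it passed the threshold without library 27. Col8a1 did not pass the threshold in any of these fits. The part of choroid plexus in these values was not tested. Col8a2 has a GC content of 59.1%. With all PAG libraries and each library's GC trend removed (described below), none of the 3 network and other collagens tested was called.

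**Figure D2:**
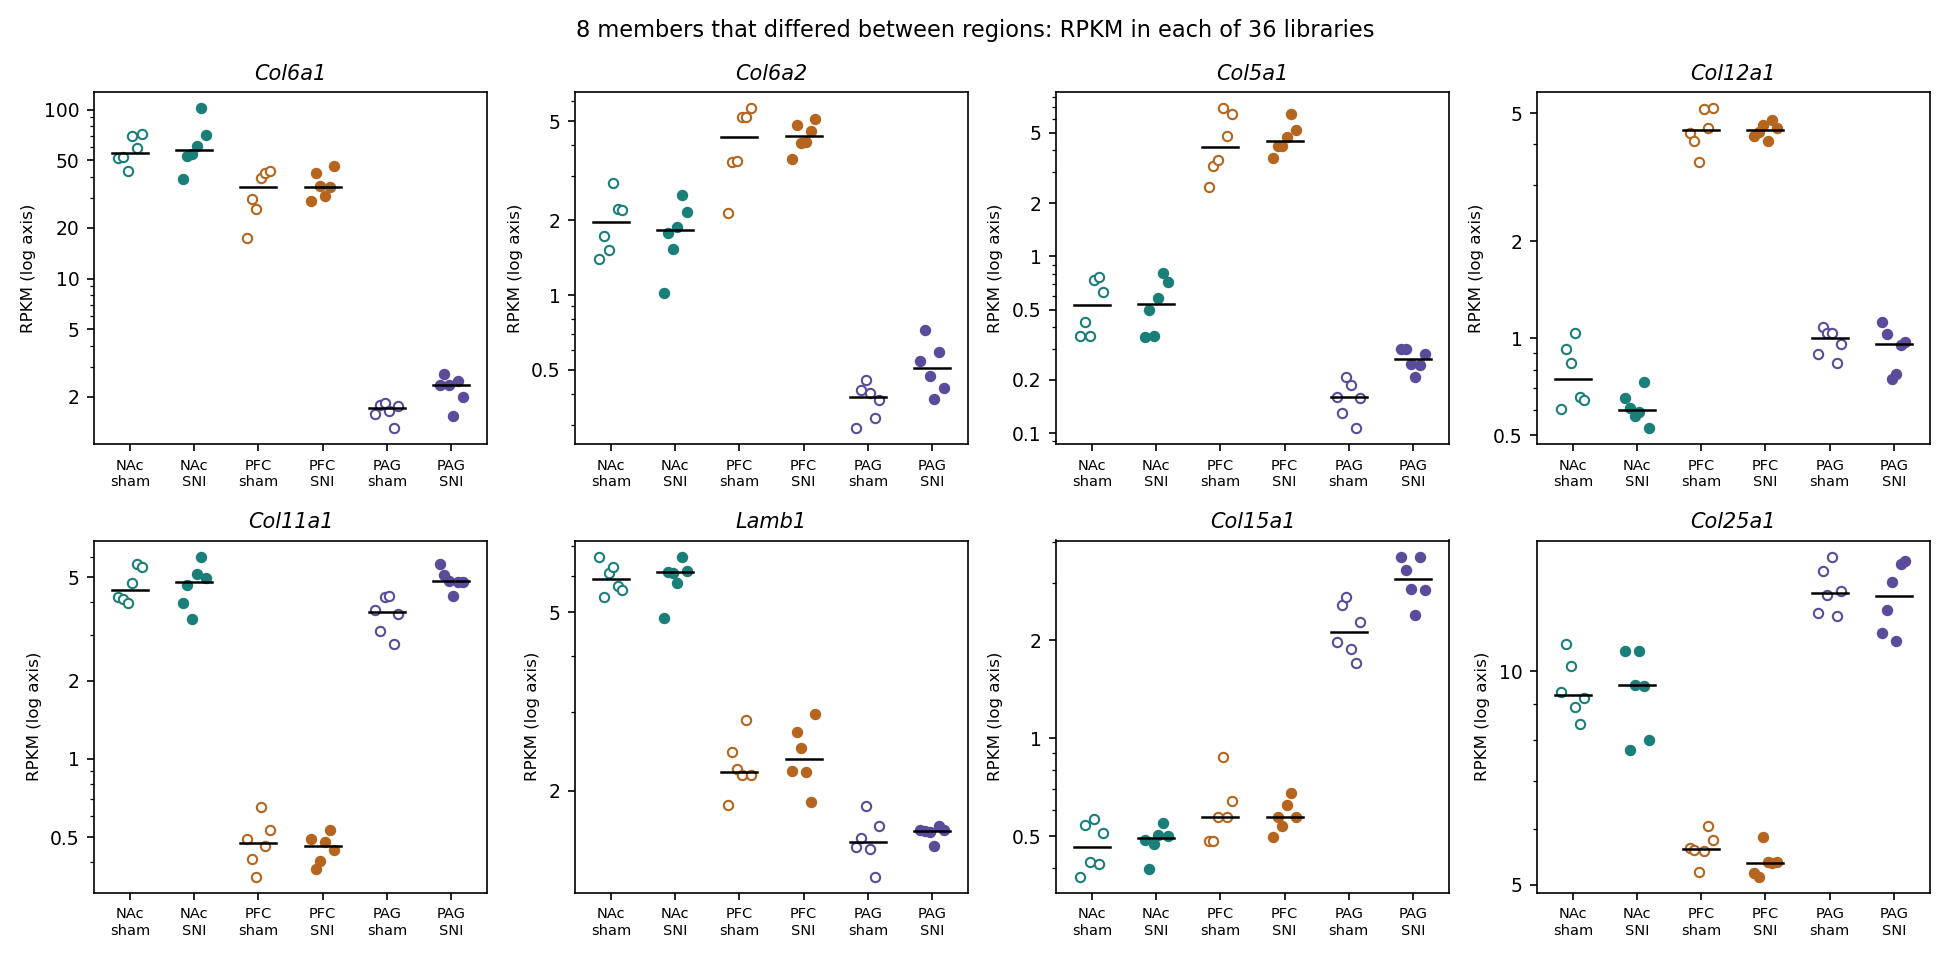
RPKM (log axis) of 8 genes in each library, with 6 libraries per region and surgery; open circles are sham, filled circles SNI, and bars are group medians. Col6a1 falls from a median of 55.7 in NAc sham to 1.70 in PAG sham, Col5a1 and Col12a1 peak in PFC, Col11a1 is low in PFC alone, and Lamb1 is highest in NAc.

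SNI was then compared with sham in each region, over the 12 libraries of the region and with an adjusted p under 0.05 as the threshold. In NAc none of the 31 genes that passed the filter was called (limma), where 0% of 15264 genes were called in all, 660 had an unadjusted p under 0.05, and voom, limma's method for counts, called none of the 31 either. The smallest p among them were those of Col12a1 (-0.20 ± 0.09, p 0.0495, adjusted p 0.780, limma) and Lama3 (-0.15 ± 0.07, p 0.0604, adjusted p 0.780). In PFC none of 34 was called (limma and voom), where 0% of 15192 genes were called and 220 had an unadjusted p under 0.05. Lama3 there had a difference of -0.14 ± 0.09 (p 0.135, adjusted p 0.99997, limma). The sham and SNI libraries of NAc and of PFC overlapped for every one of these genes (all genes tested: 0.0131% higher and 0.118% lower without overlap in NAc, 0.0527% and 0.0329% in PFC). For Lamc1 the 95% interval of the SNI effect was -0.12 to 0.14 in NAc and -0.10 to 0.19 in PFC; for Lamb2, whose libraries differed more, it was -0.32 to 0.57 and -0.41 to 0.47, so that effects of such size were not detectable there.

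In PAG, 17 of the 33 genes tested were higher after SNI (51.5%; 21.5% of all 15592 genes were called higher) and none lower (13.7% of all genes were called lower; limma). Voom on the recovered reads called 18 higher (54.5%; 21.8% of all genes) and none lower (14.5% of all genes). The median difference of the 33 genes was 0.24 and that of all genes -0.02 on the log2 scale. By protein group, 4 of 5 basement membrane collagens, 3 of 9 laminins, 5 of 6 fibrillar collagens, 3 of 5 fibril-associated collagens, 1 of 2 collagen VI chains, 1 of 3 network and other collagens and none of 3 neuronal and transmembrane collagens were called. Col1a1, among the fibrillar collagens called, passed the filter only through its SNI libraries (values below). All SNI libraries lay above all sham libraries for 8 of the 33 genes (24.2%; 13.3% of all genes), which were Col4a1, Col4a2, Col18a1, Lamb2, Col1a2, Col11a2, Col9a2 and Col16a1. None lay wholly below (3.63% of all genes). Of the 22 genes under the filter in PAG, Col5a1, Col7a1 and Col27a1 also had all SNI libraries above all sham libraries, at levels of 0.107 to 0.754 RPKM. That is 13.6% of the 22, where 0.347% of all 13544 genes under the filter with at least 1 read had the same. Many of those 13544 genes rest on few reads, and among those with a mean of 0.1 RPKM or more the shares were 15.8% of 19 and 0.944% of 4344 genes. Neither background is matched to the 22 genes in gene length, read number or GC content.

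These PAG differences ran with a property of the libraries that also separated the groups. Each library's log2 values were set against the GC content of the transcripts, and the slope was -0.217 to -0.0246 per 10 percentage points of GC in the PAG sham libraries and 0.0359 to 0.218 in the SNI libraries, with no overlap (exact two-sided permutation p 0.00216, adjusted over 14 library measures 0.0303). Collagen and laminin transcripts are GC-rich, with a median of 54.5% against 49.4% for protein-coding genes. Across the 33 genes, GC content and the PAG difference had r = 0.79, as a description over genes that share libraries. The 17 called genes had a median GC content of 59.2% and the 16 not called 51.6%. Surgery and GC slope cannot be told apart in PAG, so the genes and lists called below are given with their difference, adjusted p or count after removal of each library's GC trend by a loess curve.

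Lamb2 rose in the PAG libraries after SNI. It measured 2.33 to 3.80 RPKM in sham (median 3.45) and 4.43 to 7.55 in SNI (median 5.74). The difference was 0.73 ± 0.11 (adjusted p, limma, 0.00029), 0.40 ± 0.08 after the loess correction (adjusted p 0.00494), and -0.06 ± 0.10 with the GC slope as a covariate (adjusted p 0.868). The beta chain Lamb1 (0.04 ± 0.06) and the gamma chain Lamc1 (0.08 ± 0.05) did not pass the threshold, and the ratio of Lamb2 to Lamc1 was 0.484 to 0.734 in sham and 0.915 to 1.35 in SNI. The other called laminins were the alpha chain of adult vessels Lama5 (0.36 ± 0.11) and the gamma chain Lamc3 (0.36 ± 0.08). After the loess correction these were -0.02 ± 0.09 and 0.04 ± 0.06 (adjusted p, limma, 0.925 and 0.736). Lama2 and Lama4, the alpha chains of parenchymal and endothelial basement membranes, had differences of -0.11 ± 0.06 and -0.02 ± 0.07. Of the exon bases of Lamc3, 6.27% are shared with an antisense gene.

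Col4a2 and Col4a1 were both higher in the PAG SNI libraries before GC correction. Col4a2 was at 5.05 to 6.11 RPKM in PAG sham (median 5.73) and 7.69 to 12.2 in SNI (median 9.21), and Col4a1 at 3.98 to 4.99 (median 4.56) and 5.49 to 9.13 (median 6.25). The differences were 0.69 ± 0.09 and 0.50 ± 0.10 (adjusted p, limma, 0.000133 and 0.00177); after the loess correction they were 0.28 ± 0.07 (adjusted p 0.0131) and 0.22 ± 0.08 (adjusted p 0.0772). Their ratio moved, with Col4a1 at 0.785 to 0.817 of Col4a2 in sham and 0.638 to 0.75 in SNI, without overlap; the GC contents of the transcripts are 57.7% and 60.6%. The third collagen IV chain tested, Col4a5, did not pass the threshold (medians 1.17 and 1.2 RPKM), and its GC content is 51.5%. Col18a1 (0.48 ± 0.09), the source of the antiangiogenic fragment endostatin, and Col15a1 (0.43 ± 0.11) were called as well (adjusted p, limma, 0.00104 and 0.00836) but not after the loess correction (adjusted p 0.670 and 0.217).

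**Figure D3:**
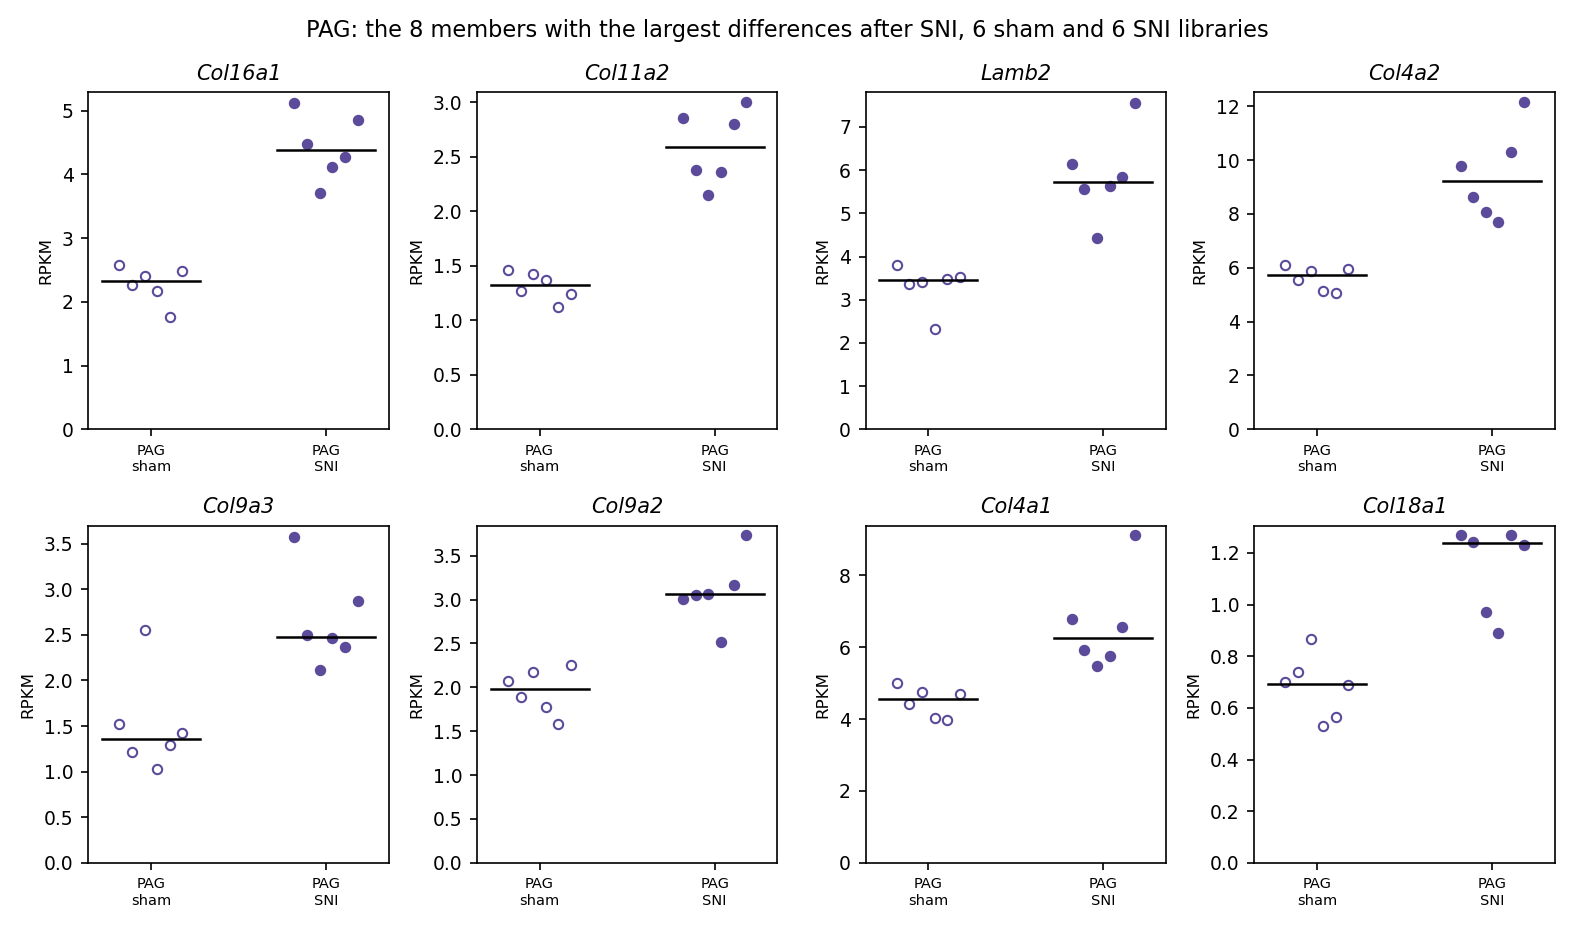
RPKM (axes from 0) of the 8 genes with the largest PAG differences, in 6 sham libraries (open circles) and 6 SNI libraries (filled circles); bars are medians. The groups are separate for 7 of the genes and overlap for Col9a3, whose highest sham value, 2.55, is from library 27.

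The largest PAG differences were in collagens of fibres and their surfaces. Col16a1, a fibril-associated collagen, was at 1.77 to 2.57 RPKM in sham and 3.71 to 5.13 in SNI, and Col11a2, a minor fibre chain, at 1.12 to 1.46 and 2.15 to 3.00. Neither overlapped between groups, with differences of 0.83 ± 0.08 and 0.76 ± 0.08 (adjusted p of both, limma, 5.02e-05). After the loess correction both were still called, at 0.39 ± 0.07 and 0.27 ± 0.07 (adjusted p 0.0029 and 0.0179). Col9a2 and Col9a3, collagen IX chains that coat such fibres, rose by 0.55 ± 0.08 and 0.67 ± 0.15 (adjusted p, limma, 0.000273 and 0.00332) and were not called after the correction, at 0.06 ± 0.07 and 0.31 ± 0.13 (adjusted p 0.646 and 0.139). The highest value of Col9a3 was 3.57 RPKM, from SNI library 31 with the choroid plexus markers, and without that library its difference was 0.59 ± 0.14, against 0.80 ± 0.11 without sham library 27 (adjusted p, limma, 0.00825 and 0.000299). Of the exon bases of Col9a3, 6.07% are shared with Tcfl5 on the opposite strand. Col1a1 and Col1a2, the chains of the most abundant body collagen, were called at 0.24 ± 0.06 and 0.32 ± 0.07 (adjusted p, limma, 0.0113 and 0.00266), from sham medians of 0.437 and 0.524 RPKM close to the filter. The loess correction left -0.10 ± 0.06 and 0.14 ± 0.06 (adjusted p, limma, 0.344 and 0.171). The sham median of Col1a1 lies under the filter of 0.5 RPKM. This gene passed the filter through its SNI libraries, at a mean of 0.540 RPKM over the PAG libraries.

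Col11a1 departed from the trend with GC content. It has a GC content of 48.0%, the lowest of the 17 called genes, and measured 2.76 to 4.25 RPKM in PAG sham (median 3.66) and 4.23 to 5.61 in SNI (median 4.82). All 6 SNI libraries lay above the sham median, and the lowest SNI library lay just under the highest sham library. The difference was 0.40 ± 0.09 (adjusted p, limma, 0.00406), 0.45 ± 0.08 after the loess correction (adjusted p 0.00363) and 0.53 ± 0.21 with the GC slope as a covariate (adjusted p 0.531). Under that covariate no gene of the whole table was called (0%; 1374 genes had an unadjusted p under 0.05). The neuronal collagen Col25a1, with a GC content of 45.9%, had medians of 12.9 and 12.8 RPKM and a 95% interval of -0.19 to 0.11.

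**Figure D4:**
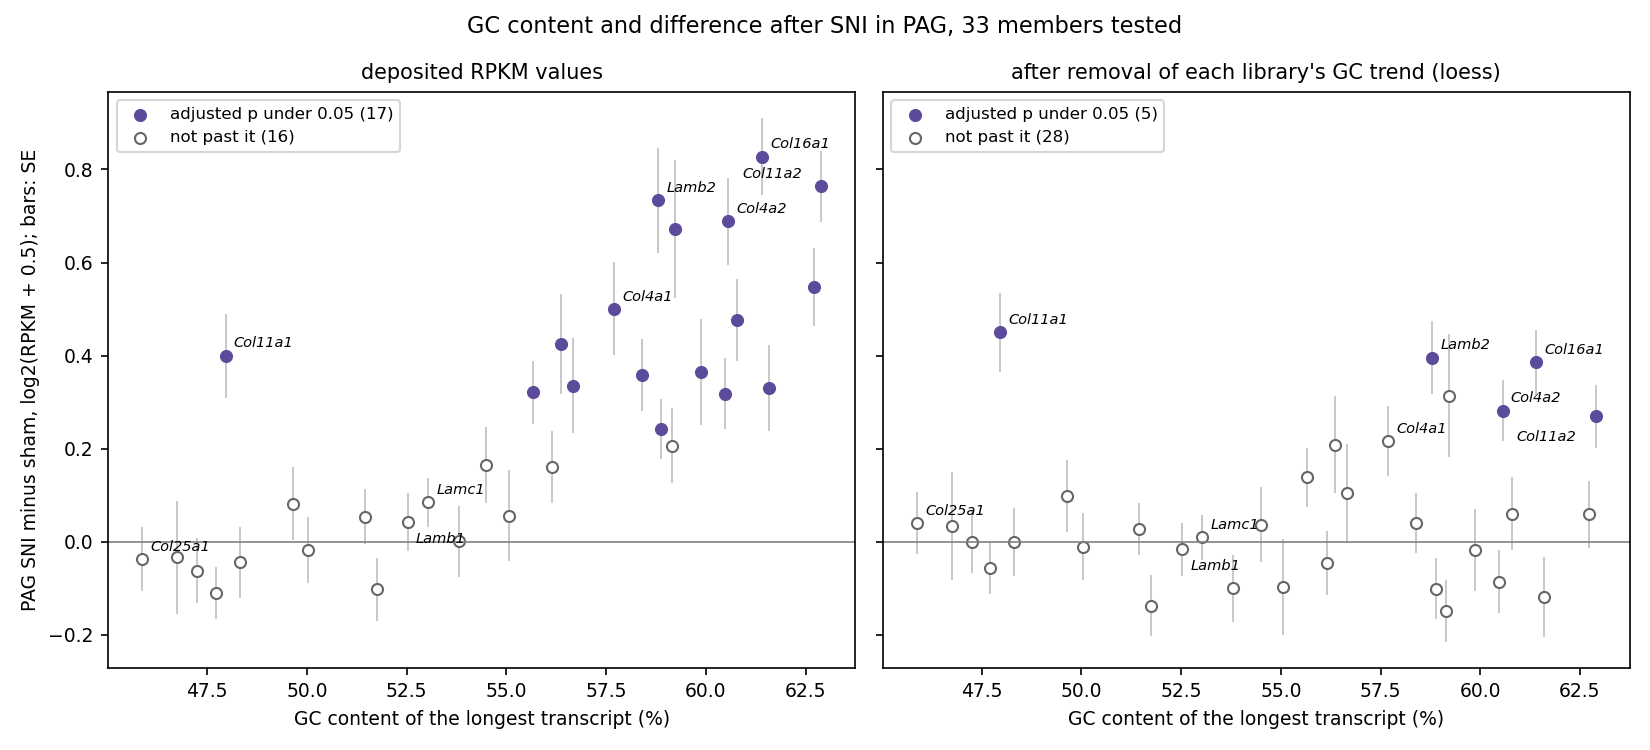
PAG difference of SNI minus sham on log2(RPKM + 0.5), with SE bars, against the GC content of the transcript for 33 genes, before (left) and after (right) removal of each library's GC trend; filled points passed an adjusted p of 0.05. The called genes go from 17 to 5 (Col4a2, Col11a1, Col11a2, Col16a1 and Lamb2), and r goes from 0.79 to 0.18.

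After the loess correction those 5 genes were 15.2% of the 33, and 7.82% of all genes were called higher and 5.3% lower. A further correction removed from each gene its dependence on the GC slope as estimated within groups of NAc and PFC. It left none of the 33 called, with Col11a1 at 0.27 ± 0.09, Col16a1 at 0.24 ± 0.08, Col4a2 at 0.17 ± 0.07 and Lamb2 at 0.10 ± 0.05 (adjusted p, limma, 0.272, 0.248, 0.377 and 0.441). Col11a2, also among those 5 genes, changed direction under it (value in the closing section). Of all genes, 0.109% were called higher and 0.0192% lower.

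The GC slope also accompanied these genes inside the surgery groups. Over the 12 libraries of a region, each relative to its group mean, Lamb2 and the GC slope had r = 0.904 (NAc), 0.947 (PFC) and 0.951 (PAG; adjusted permutation p over 12 relations 0.000240, 0.000240 and 0.000312; rho 0.888, 0.783 and 0.916). Without the 2 libraries of most extreme slope r was 0.729, 0.815 and 0.886. Col4a2 gave 0.892, 0.889 and 0.685 (adjusted permutation p 0.000270, 0.000240 and 0.0266; rho 0.867, 0.860 and 0.517, of which the last has an adjusted permutation p of 0.148), and 0.869, 0.827 and 0.489 without those 2. Lamc1 gave 0.594, 0.725 and 0.504 (adjusted permutation p 0.0628, 0.0186 and 0.125). Without those 2 libraries, which are 13 and 19 in PFC, its r was 0.309, 0.0218 and 0.479. The last of these, in PAG, was close to the 0.489 of Col4a2. Col25a1 gave -0.334, 0.254 and -0.228. These relations were chosen after the PAG result was seen.

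**Figure D5:**
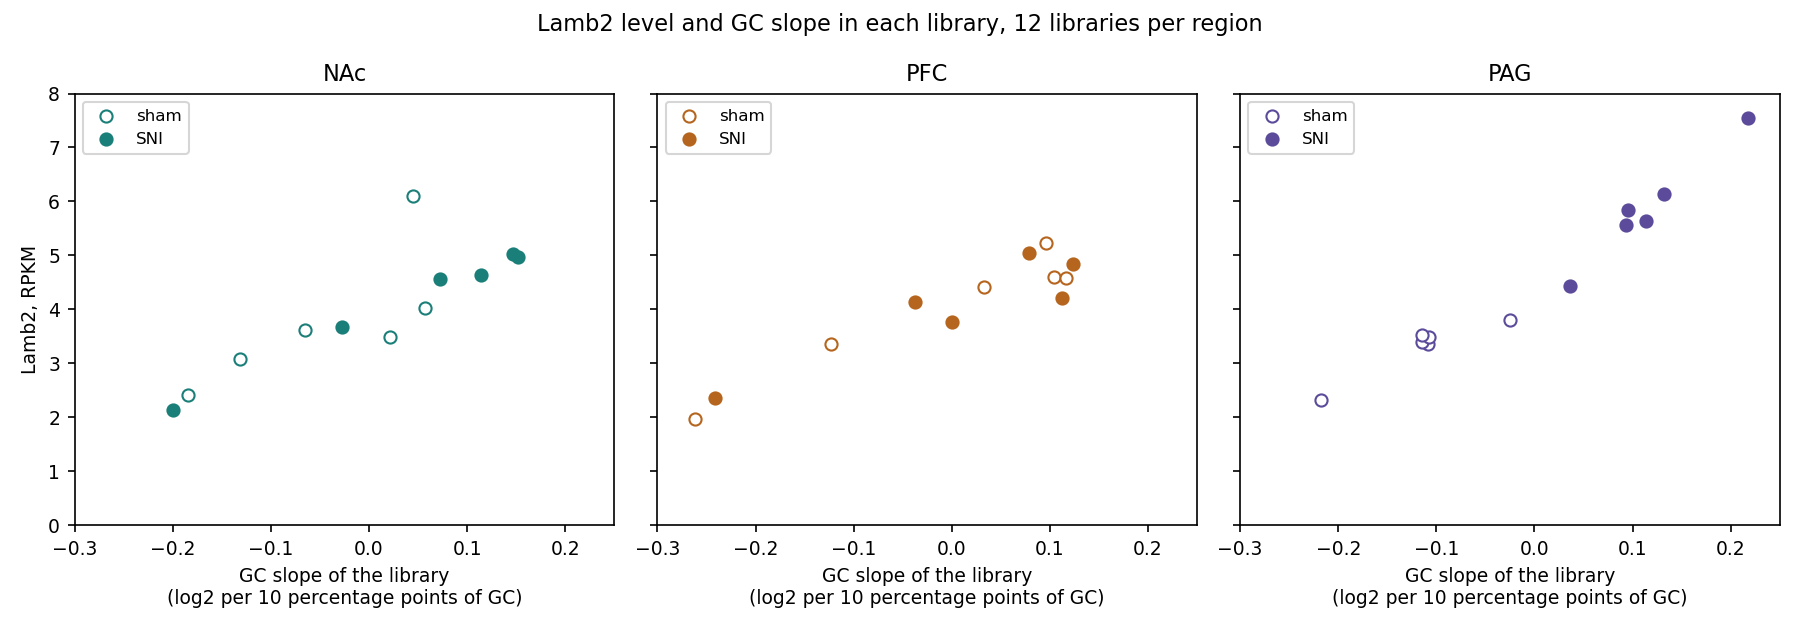
Lamb2 RPKM against the GC slope of the library (log2 per 10 percentage points of GC) in the 12 libraries of each region; open circles are sham and filled circles SNI. Sham and SNI libraries mix along the slope in NAc and PFC and separate in PAG, where the SNI libraries have the higher slopes and the higher Lamb2 values.

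Whether the SNI effect differed between regions was tested as an interaction over the 36 libraries. None of 39 genes passed the threshold for PAG against NAc, PAG against PFC or NAc against PFC (limma; 0% of 15639 genes in each; 1405, 2779 and 178 genes with an unadjusted p under 0.05). The PAG effect minus the PFC effect was 0.70 ± 0.27 for Lamb2, 0.63 ± 0.23 for Col4a2, 0.78 ± 0.26 for Col16a1 and 0.44 ± 0.14 for Col11a1 (adjusted p 0.212 to 0.221, limma, for these and Col15a1, at 0.45 ± 0.13). With array weights, which give less weight to noisy libraries, 14 genes of the 39 passed (35.9%; 15.7% of all genes higher and 8.06% lower), and 8 passed without PFC sham library 13 (20.5%; 6.52% of all genes higher and 0.799% lower).

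Markers of the cells that make these proteins, and of other cells of the tissue, were set beside the PAG result. Their calls are read against the 21.5% of all genes called higher and 13.7% called lower, and the last count of each list is after the loess correction (7.82% and 5.3% of all genes). Summed endothelial markers were 83.9 to 102 RPKM in sham and 84.8 to 120 in SNI, and 3 of 12 markers were called higher and 2 lower (25% and 16.7%), with none called after the correction. Mural markers were 75.1 to 83.1 and 76.4 to 91.0, with 2 of 11 higher (18.2%) and none after the correction. Fibroblast and meningeal markers were 31.3 to 48.6 and 36.8 to 48.9, with 4 of 13 higher (30.8%) and 1 after the correction. The exact permutation p of these 3 sums was 0.474, 0.255 and 0.0498 (adjusted 0.553, 0.428 and 0.139). Endothelial and mural shares were thus near the background.

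Markers of glia and neurons were compared in the same way. Astrocyte markers were 912 to 1008 RPKM in sham and 970 to 1047 in SNI (exact permutation p 0.0108, adjusted 0.0606), with 4 of 9 higher and 3 lower, and 2 higher after the correction. Oligodendrocyte markers were 1218 to 1406 and 1289 to 1771 (exact permutation p 0.0801, adjusted 0.187), with 3 of 9 higher and 1 after the correction. Cortical excitatory neuron markers, low in PAG, were 8.57 to 10.4 and 9.52 to 12 (exact permutation p 0.0130, adjusted 0.0606), with 1 of 4 tested higher, before and after the correction. Cholinergic neuron markers were 9.05 to 26.7 and 1.35 to 15.9 (exact permutation p 0.0260, adjusted 0.0909), with 1 of 2 tested lower and none after the correction. Midbrain neuron markers were 311 to 396 and 200 to 355 (exact permutation p 0.102, adjusted 0.203), with 2 of 7 higher and 1 after the correction. No adjusted p of a marker sum was under 0.05 in PAG, none of the markers found was at 0 in every library, all these groups overlapped, and the part of these cells in the PAG result was not tested.

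The proteins that work with collagens and laminins were called in both directions in PAG and gave no call in NAc or PFC (limma; smallest p Mmp2 in NAc, -0.22 ± 0.08, p 0.0152, and P4ha1 in PFC, 0.25 ± 0.08, p 0.00937). Of 17 other basement membrane components tested in PAG, 7 were higher (41.2%; 21.5% of all genes) and none lower (13.7% of all genes). After the loess correction 2 were higher (11.8%; 7.82% of all genes). Agrn, a proteoglycan of vessels and synapses, was at 14.4 to 16.8 RPKM in sham and 18.6 to 23.4 in SNI, and Egfl7, a protein secreted by endothelial cells, at 2.35 to 3.21 and 3.72 to 4.73. Their differences were 0.43 ± 0.06 and 0.42 ± 0.07, and that of Fbln1, a fibulin that binds laminin, was 0.45 ± 0.10 (adjusted p, limma, 0.000179, 0.000472 and 0.00266). After the correction they were 0.21 ± 0.05, 0.17 ± 0.05 and 0.31 ± 0.09 (Agrn, Egfl7 and Fbln1; adjusted p, limma, 0.0106, 0.0585 and 0.0276).

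Of 23 enzymes of collagen synthesis, 9 were higher and 2 lower (39.1% and 8.7%; 21.5% and 13.7% of all genes), and 1 and 2 after the correction (4.35% and 8.7%; 7.82% and 5.3% of all genes). The smallest p were those of Leprel2, a prolyl hydroxylase now named P3h3 (0.47 ± 0.06), the procollagen-cleaving protease Bmp1 (0.28 ± 0.04) and the lysyl hydroxylase Plod3 (0.34 ± 0.06). None of these 3 was called after the correction, at 0.01 ± 0.05, 0.05 ± 0.04 and 0.05 ± 0.04. Of 13 receptors, 7 were higher and 1 lower (53.8% and 7.69%), and 2 and none after the correction (15.4%). The collagen receptor Ddr1 went from 10.3 to 13.3 RPKM in sham to 15.1 to 21 in SNI (0.63 ± 0.07), and was still called after the correction (0.25 ± 0.04, adjusted p, limma, 0.00169). The laminin-binding integrin subunits Itgb4 and Itga3 rose by 0.65 ± 0.09 and 0.37 ± 0.07, which became 0.27 ± 0.07 and 0.07 ± 0.04, of which Itgb4 was called (adjusted p, limma, 0.0291 and 0.298). Of 15 proteases and inhibitors, 4 were higher and 2 lower, and these shares, 26.7% and 13.3%, were near those of all genes. None was higher after the correction and 2 were lower. The matrix metalloproteinases Mmp24 (0.26 ± 0.05) and Mmp17 (0.36 ± 0.07) and the aggrecan-cleaving Adamts4 (0.23 ± 0.05) were among the 4 and came to -0.05 ± 0.03, 0.17 ± 0.06 and 0.07 ± 0.05 after it. With the GC slope as a covariate no gene of these 4 lists was called in PAG.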

How the data were processed

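Expression in 36 libraries was taken from a table of RPKM values that the authors deposited together with gene lengths. The submitters' processing notes name TopHat2, HTSeq and the build mm10; neither their order and versions nor the strand setting of the counting is given in the sources used here. Reads were recovered from the deposited RPKM values through gene length and library depth, and 100% of the values came out whole within 0.001. GENCODE M21 supplied coordinates and the GC content of the longest transcript (97.9% of identifiers matched), and a RefSeq table supplied starts for 40 of the 55 genes.

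Values were compared on log2(RPKM + 0.5) with limma 3.58.1 (R 4.3.3, trend, two-sided, Benjamini-Hochberg adjustment over all genes) for genes averaging 0.5 RPKM or more: 12 libraries per region for SNI, 36 for regions and interactions. The 95% intervals use limma's t distribution. The script was tested on simulated data. The genes, lists and tests were chosen with earlier results of these data known. Named genes were Col4a2 and Lamb2; up to 8 called genes per SNI comparison and direction, or the 2 of smallest p; up to 4 per regional comparison and direction; the most abundant gene of each structural group; chain partners; and up to 3 genes per pathway list and region. The remaining genes named by symbol were listed as under the filter, as called, or beside a value that library 4 or a chain partner touched, after their values were seen. Of 240 genes in the lists, 239 were found, 7 under an older symbol. Alternatives of pseudocount, filter, scaling, weights, GC correction and left-out libraries are given in the closing section. Values of 1 gene are not reported here; counts include it.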

Additional observations from a re-analysis of the deposited data

Results flagged for a closer look

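In each of the 6 groups, the 23 named genes reported here were searched for a library whose gap to the nearest of the other 5 exceeded 0.625 of the group's range. Of 138 gene and group pairs, 9 had such a library, and chance gives about 1 in 20. PAG sham library 27, with the high choroid plexus markers, was the highest for Col8a1 (2.73 RPKM, next 1.63), Col8a2 (2.85, next 2.18) and Col9a3 (2.55, next 1.53). NAc sham library 4, with the high meningeal markers, was the highest for Col8a2 (0.709 RPKM, next 0.259) and Col9a2 (2.08, next 1.16). PAG SNI library 36, which has the highest GC slope of the PAG libraries, was the highest for Col4a1 (9.13 RPKM, next 6.79), and PAG sham library 28, which has the lowest slope, was the lowest for Lamb2 (2.33 RPKM, next 3.37). The others were Lamb1 in PAG SNI library 34 (lowest, 1.51 RPKM, next 1.62) and Col25a1 in PFC SNI library 21 (highest, 5.84 RPKM, next 5.38).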

How the results depend on the processing

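Over the settings other than left-out libraries, 507 single-gene values kept direction and call, 20 lost the call, 2 gained it and 22 changed direction. The 17 genes called higher in PAG became 5 with GC loess, 0 with the GC slope as covariate, 8 with a filter of 2 RPKM (12 genes tested), 0 with the library axis (the dependence on the GC slope within groups of the other regions) removed and 10 at an unadjusted p under 0.05 with a fold of 1.3, and were 16 to 20 without single libraries; quantile normalization called 1 lower. NAc against PFC had 8 lower with voom; NAc against PAG had 5 lower with GC loess over 36 libraries (chosen after seeing the data) and 0 with the 2 RPKM filter. PFC against PAG had 11 higher with a pseudocount of 0.1 and 11 with voom, and 2 lower with the 2 RPKM filter and 3 with a pseudocount of 1; fewer genes pass that filter. The PAG against PFC interaction had 14 higher with array weights and 0 to 8 without single libraries, 8 being without PFC sham library 13. Shares of all genes called are given above for the GC corrections in PAG, array weights and the fit without library 13. For the other settings of this paragraph they are not given. Those counts therefore do not show whether these genes moved apart from the whole table.

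Direction changed as follows, and the cause was not tested. With the GC slope as covariate, log2 differences were -0.0641 (Col4a2) and -0.14 (Lamb2) for SNI in NAc, -0.0902 (Col4a1) and -0.0621 (Lamb2) for SNI in PAG, -0.0695, 0.0314 and -0.10 for Lamb2 in NAc minus PAG, NAc minus PFC and PFC minus PAG, and -0.0922 (Col4a2) and -0.12 (Lamb2) for the NAc minus PFC interaction. With GC loess over 36 libraries the 3 Lamb2 regional values were -0.11, 0.0502 and -0.16, Col4a2 in PFC minus PAG was -9.63e-05, and its NAc minus PFC interaction was -0.045 with either loess. With the library axis removed, SNI values were -0.0526 (Col4a2) and -0.11 (Lamb2) in NAc, -0.0619 (Col11a2) and -0.0176 (Col9a3) in PAG and -0.0063 (Lamb2) in PFC. With array weights, Col4a2 and Lamb2 were -0.0938 and -0.0929 for SNI in PFC. Without single libraries, Lamb2 spanned -0.000225 to 0.23 (NAc minus PAG), -0.24 to 0.0279 (NAc minus PFC), -0.13 to 0.16 (SNI in PFC) and -0.0348 to 0.26 (NAc minus PFC interaction), and Col4a2 -0.0625 to 0.15 (SNI in PFC) and -0.0165 to 0.20 (NAc minus PFC interaction).

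No paired analysis was made, because the labels do not give whether libraries of different regions come from the same mice. The fits over 36 libraries treated all of them as independent. At 27.6 M reads, 1 read of a 1 kb gene is worth 0.0362 RPKM, so the lowest genes rest on few reads.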
